A study of Homo sapiens with 4 samples.

Results

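The genes described here are 8 components of the caspase cascade in SUP-M2, an established human cell line grown from an ALK-positive anaplastic large cell lymphoma, which is a cancer of mature T cells. They were taken by symbol from the 58735 gene rows of the deposited table: the initiator caspases CASP2, CASP8, CASP9 and CASP10, the executioner caspase CASP6, and the apoptosome genes APAF1, CYCS and DIABLO. The 8 symbols matched 9 rows, because DIABLO has 2 gene identifiers. RNA-seq libraries came from SUP-M2 with a scrambled short hairpin RNA (shscramble, 2 libraries) and from SUP-M2 with short hairpin RNA against the Golgi membrane protein gene GOLM1 (shGOLM1, 2 libraries). The titles name hairpins, while the genotype label reads GOLM1 knockout. No label says whether one hairpin or several were used. None says that replicates came from separate cultures either, and the spread that the p-values measure may thus be technical only. In the series title GOLM1 is linked with apoptosis and with BCL-XL, which restrains the mitochondrial step upstream of these genes.

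Caspases are cysteine proteases made as inactive precursors. In the mitochondrial route, cytochrome c (CYCS) leaves the mitochondrion and binds APAF1, which assembles into the apoptosome and activates CASP9. DIABLO, released alongside, relieves caspases of the inhibitor of apoptosis proteins. In the death receptor route, CASP8 and CASP10 are activated at the adaptor FADD, and CASP2 is activated on a separate platform built by PIDD1 and CRADD. Initiators cleave executioner caspases such as CASP6, whose known substrates include nuclear lamins. All of this control acts largely on proteins, which were not measured here.

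The promoters of APAF1 and CYCS are shown because their products form one complex while their transcripts lay on opposite sides of the shscramble level. RefSeq (GRCh38.p14) gave promoter windows for 7 of the 8 genes, from 250 bases before to 50 after each start, and the stretches below are the part before the start that lies in no GENCODE 29 exon of the gene, 101 bases at chr12:98645040-98645140 (plus strand) and 149 bases at chr7:25125362-25125510 (minus strand). Capitals mark CCAAT, or its reverse complement, and the motif GCATGCGC.
APAF1: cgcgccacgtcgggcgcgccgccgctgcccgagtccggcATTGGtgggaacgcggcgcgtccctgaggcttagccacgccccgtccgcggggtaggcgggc
CYCS: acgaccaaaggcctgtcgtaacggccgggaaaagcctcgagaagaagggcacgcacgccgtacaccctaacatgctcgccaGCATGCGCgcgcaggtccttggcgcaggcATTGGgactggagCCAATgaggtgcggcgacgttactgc
Both strands of each full window were searched. CCAAT occurs in 34.6% of the 35116 RefSeq windows, once in the APAF1 window and 2 times in the CYCS window. GCATGCGC, a core form of the motif of nuclear respiratory factor NRF1, occurs in 3.05% of windows, and among the windows of these genes only in that of CYCS, 169 bases before its start. TGACGT, the half-site of the cyclic AMP response element, occurs in 7.98% of windows and lies 81 bases before the CYCS start, beyond the stretch printed. These are matches of letters only.

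The libraries held from 27544171 to 31972153 counts. GOLM1 itself was at 212 and 213 CPM (counts scaled to a common library total, with TMM factors) in shscramble against 69.6 and 69.5 CPM in shGOLM1, so the labels and the targeted transcript go together. The libraries carried the defining transcripts of the line: 8 of 8 lymphoma and T cell markers were at 1 CPM or more in every library, with a summed level of 1674 to 1761 CPM in shscramble and 1420 to 2304 CPM in shGOLM1. Within that sum single markers differed in opposite directions. The cytotoxic granule gene PRF1 was at 2.91 and 2.71 CPM in shscramble against 621 and 145 CPM in shGOLM1. In shGOLM1 replicate 2 the CD30 gene TNFRSF8 was at 88.4 CPM against 539 to 634 CPM in the other 3 libraries, and the granzyme gene GZMB at 20.4 against 86.3 to 149 CPM. Their part in the results below was not tested. Of 5 B cell markers and 5 fibroblast or endothelial markers, 0 reached 1 CPM in any library. Of 5 epithelial markers 1, KRT8, did so in shGOLM1 replicate 2 (2.37 CPM), and of 5 myeloid markers only CSF1R did so, in all 4 libraries. The shGOLM1 libraries stand apart from each other. Mitochondrially encoded genes took 0.456% of counts in shGOLM1 replicate 2 against 1.95% to 2.38% in the other 3 libraries, and ribosomal protein genes 16.4% against 7.55% to 9.91%. For each of the 8 genes the result is therefore also given for each shGOLM1 library set alone against the shscramble pair. Such a fit assumes that a lone library spreads as the shscramble pair does, and it compares libraries rather than conditions.

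Of the 8 genes, APAF1, CASP10 and DIABLO (3) had both shGOLM1 libraries above the shscramble pair, CYCS, CASP6 and CASP9 (3) had both below it, and CASP2 and CASP8 had overlapping groups. None of the 8 passed edgeR's quasi-likelihood test over the 4 libraries at an adjusted p under 0.05, nor did any of the 14166 genes tested (0%). At an unadjusted p under 0.05 edgeR gave 2 of the 8, APAF1 and CASP10, both higher, beside 11.8% of all genes tested (8.2% higher and 3.58% lower). CASP10 passed the filter on low counts only through the group where it is high, so its p is no support. DESeq2 called 0 of the 8 (3.69% of all genes with an adjusted p), as did limma-voom (0%), the authors' deposited table (2.28%), edgeR with no filter on low counts (0.759%) and edgeR without shscramble replicate 1 (0.139%) or 2 (0.126%). Groups did not overlap for 51.7% of all genes tested, 25.2% higher and 26.5% lower, so 3 and 3 of 8 is close to the background. With 2 libraries against 2, groups that do not overlap have an exact two-sided permutation p of 0.333, the smallest this design can give. These are bulk libraries, in which fewer cells expressing a gene and less RNA per cell cannot be told apart.

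**Figure D1:**
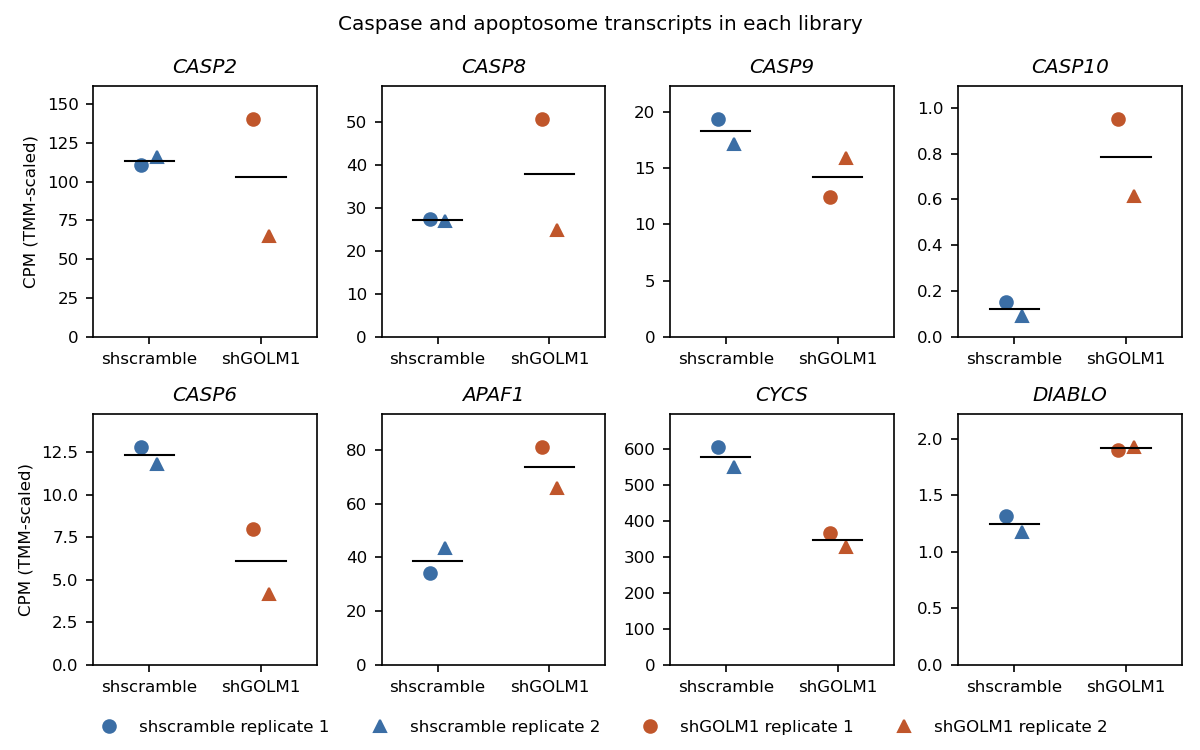
CPM of each gene (vertical axis, starting at 0) in the shscramble and shGOLM1 libraries; circles are replicate 1, triangles replicate 2, and black lines group means (n = 2). APAF1, CASP10 and DIABLO sit higher and CYCS, CASP6 and CASP9 lower in both shGOLM1 libraries, while CASP2 and CASP8 have shGOLM1 libraries on both sides of the shscramble pair.

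APAF1 (ENSG00000120868, chromosome 12, 98645141 to 98735433, GRCh38), the scaffold of the apoptosome, was at 34.4 and 43.4 CPM in the shscramble libraries, against 81.3 and 66.0 CPM in replicates 1 and 2 of shGOLM1. Both shGOLM1 libraries were clear of the shscramble pair, and the group mean was 1.9-fold higher (38.9 ± 6.34 against 73.7 ± 10.8 CPM, SD, n = 2 each). The log2 fold change was 0.92 (SE 0.31, 95% interval 0.09 to 1.76), with an adjusted p of 0.42 in edgeR. In the fits without shscramble replicate 1 or 2, APAF1 was not called. Against the shscramble pair, edgeR called APAF1 higher in each shGOLM1 library alone, with log2 fold changes of 1.05 in replicate 1 and 0.71 in replicate 2. Calls in this direction covered 20.4% of genes in replicate 1 and 33.3% in replicate 2, and 9.76% of the 14166 genes were called higher in both. Of APAF1's exonic bases 9.48% lie opposite exons of ANKS1B, which had between 5 and 20 counts per library.

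CYCS (ENSG00000172115, chromosome 7, 25120091 to 25125361), which encodes the electron carrier that also triggers the apoptosome, had the highest CPM of the set. It was at 607 and 549 CPM in shscramble against 367 and 327 CPM in shGOLM1. All shGOLM1 values lay below all shscramble values, and the mean was 1.67-fold lower (578 ± 41.0 against 347 ± 28.9 CPM, SD, n = 2 each). The log2 fold change was -0.74 (SE 0.30, 95% interval -1.55 to 0.08; adjusted p = 0.438 in edgeR). In edgeR it was called lower in each shGOLM1 library alone, with adjusted p of 0.000135 and 8.31e-06 in replicates 1 and 2. Genes called lower made up 24.1% and 34.1% of those tested in these fits, and 14.1% of the 14166 genes were lower in both. CYCS has many processed copies in the genome. The table lists 40 CYCSP pseudogene rows, 10 of them with any count, and together they hold 0.184% as many counts as CYCS, so reads that were assigned to copies are few. The sources used here do not give how reads matching several places were treated.

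DIABLO, the antagonist of inhibitor of apoptosis proteins, was counted at a low level under identifier ENSG00000184047 (chromosome 12, 122207663 to 122226568): 43 and 39 counts in shscramble against 66 and 44 in shGOLM1. That corresponds to 1.32 and 1.17 CPM against 1.90 and 1.93 CPM, higher in both shGOLM1 libraries, with a log2 fold change of 0.62 (SE 0.53, adjusted p = 0.637 in edgeR). Neither shGOLM1 library alone passed (adjusted p of 0.311 and 0.295 in edgeR). The other identifier, ENSG00000284934 (122207662 to 122227534), had 1 count in shscramble replicate 2 and 0 in the other libraries, where 0 allows up to 3 counts or 0.0865 to 0.132 CPM, and it was not tested. Both models lie on the same strand. With a further overlapping model, AC048338.1 (0 counts in every library), they share 29.6% of the exonic bases and 55.8% of the coding bases of ENSG00000184047. On the opposite strand, B3GNT4 shares 970 exonic bases, 14.3% of ENSG00000184047. B3GNT4 had 1 and 5 counts in shscramble and 14 and 9 in shGOLM1. The strand setting of the counting is not given, and the part of these reads in the DIABLO values was not tested. The sources used here do not give whether reads on shared bases were dropped or assigned, so the counts may leave out part of the DIABLO transcript and its level is uncertain.

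Among the initiators, CASP9 (ENSG00000132906, chromosome 1, 15490832 to 15526534), the caspase that the apoptosome activates, was at 19.4 and 17.2 CPM in shscramble against 12.4 and 15.9 CPM in shGOLM1. The groups did not overlap, but shGOLM1 replicate 2 lay close under the shscramble pair. The log2 fold change was -0.37 (SE 0.35, 95% interval -1.30 to 0.57; adjusted p = 0.67 in edgeR). CASP9 passed edgeR as lower in shGOLM1 replicate 1 alone (adjusted p = 0.00829) and did not in replicate 2 alone (adjusted p = 0.192). The difference between these 2 libraries cannot be tested, as each is a single library.

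CASP8 (ENSG00000064012, chromosome 2, 201233443 to 201287711), the initiator of the death receptor route, was at 27.5 and 27.1 CPM in shscramble. It was at 50.8 CPM in shGOLM1 replicate 1 and at 25.0 CPM in replicate 2. One shGOLM1 library thus lay 1.86-fold above the shscramble mean and the other slightly below both control libraries. Over the 4 libraries the log2 fold change was 0.47 (SE 0.44, 95% interval -0.71 to 1.66; adjusted p = 0.666 in edgeR). Alone, replicate 1 was called higher (log2 fold change 0.88, adjusted p = 6.79e-06 in edgeR), and replicate 2 was not called (log2 fold change -0.18, adjusted p = 0.274).

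CASP2 (ENSG00000106144, chromosome 7, 143288215 to 143307696), the PIDD1-linked initiator, was at 110 and 116 CPM in shscramble, at 140 CPM in shGOLM1 replicate 1 and at 64.9 CPM in replicate 2. The shGOLM1 libraries lay on opposite sides of the controls, and their mean of 103 ± 53.4 CPM (SD, n = 2) was near the shscramble mean of 113 ± 4.01 CPM. The log2 fold change was -0.14 (SE 0.45, 95% interval -1.35 to 1.07; adjusted p = 0.911 in edgeR), so changes of more than 2-fold in either direction lie inside the interval. Taken alone, edgeR called replicate 1 higher (log2 fold change 0.29, adjusted p = 0.0361) and replicate 2 lower (-0.85, adjusted p = 6.76e-06). Of all 14166 genes, 11.3% were called in opposite directions in this way, and CASP2 was the only one of the 8.

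CASP10 (ENSG00000003400, chromosome 2, 201182881 to 201229406), a death receptor initiator related to CASP8, was nearly absent from shscramble, with 5 and 3 counts. It had 33 and 14 counts in shGOLM1. Both shGOLM1 libraries were higher, at 0.952 and 0.615 CPM against 0.153 and 0.0902 CPM, and all 4 levels stayed under 1 CPM. The 47 counts of the shGOLM1 pair against 8 of the shscramble pair give a ratio of 6.74 after scaling (95% interval 3.16 to 16.5, exact Clopper-Pearson, counting error only). That interval leaves out the spread between libraries, so it is no support for a difference between the groups. The log2 fold change of 2.65 (SE 0.78, 95% interval 0.57 to 4.74) had an adjusted p of 0.42 in edgeR, and CASP10 passed the filter on low counts only through its shGOLM1 libraries. Alone, replicate 1 was called (adjusted p = 0.0178 in edgeR) and replicate 2 was not (adjusted p = 0.0933). CFLAR, CASP10 and CASP8 lie in this order on the plus strand of chromosome 2, with 6193 and 4036 bases between neighbours. CFLAR, the catalytically inactive relative of CASP8 that restrains it, was at 22.4 and 23.8 CPM in shscramble and 29.5 and 40.5 CPM in shGOLM1 (log2 fold change 0.60, SE 0.33, adjusted p = 0.502 in edgeR). In shGOLM1 replicate 1 all 3 neighbours were above both controls, and in replicate 2 CASP8 was below them.

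CASP6 (ENSG00000138794, chromosome 4, 109688622 to 109703583), the executioner known for cleaving lamin A, was at 12.8 and 11.8 CPM in shscramble against 7.99 and 4.17 CPM in shGOLM1. Both shGOLM1 libraries were lower, replicate 2 by the wider margin, and the mean was 2.03-fold lower (12.3 ± 0.725 against 6.08 ± 2.70 CPM, SD, n = 2 each). The log2 fold change was -1.02 (SE 0.48, 95% interval -2.31 to 0.28; adjusted p = 0.473 in edgeR). In edgeR it was called lower in each shGOLM1 library alone, with log2 fold changes of -0.64 and -1.61 and adjusted p of 0.00929 and 8.75e-06 in replicates 1 and 2. At its end CASP6 shares 105 exonic bases, 5.4% of its exons, with MCUB on the opposite strand. MCUB had 2424 and 2442 counts in shscramble and 1716 and 1185 in shGOLM1. As the strand setting of the counting is not given, reads on those bases cannot be told apart, and their part in the CASP6 values was not tested.

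**Figure D2:**
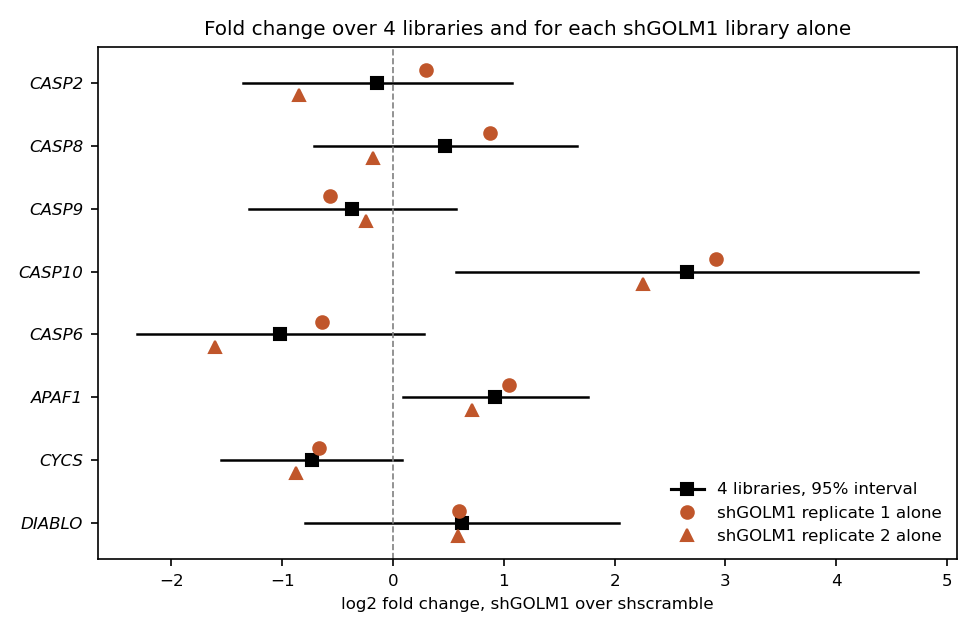
Log2 fold change of shGOLM1 over shscramble for each gene: black squares with 95% intervals come from edgeR over 4 libraries, and circles and triangles from shGOLM1 replicate 1 or 2 alone. The interval of APAF1 (0.09 to 1.76) lies above 0, as does that of CASP10 (0.57 to 4.74), which was tested only because its shGOLM1 counts are high, and CASP2 and CASP8 have the single-library values on opposite sides of 0.

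Taken alone, shGOLM1 replicate 1 had 7 of the 8 genes past edgeR's threshold, 4 higher (APAF1, CASP2, CASP8 and CASP10) and 3 lower (CYCS, CASP6 and CASP9). Over all genes that fit called 44.5%. Replicate 2 alone had 4 of the 8 past it, APAF1 higher and CYCS, CASP6 and CASP2 lower, where all genes gave 67.4%. The genes called in the same direction in both were therefore APAF1, CYCS and CASP6, which is 3 of 8, beside 9.76% higher in both and 14.1% lower in both among all genes. CASP10 was tested only through its shGOLM1 counts, so its place among the genes called in replicate 1 is no support. The gap between the shGOLM1 libraries, as an absolute difference of log2(CPM + 0.1), ranged from 0.02 for DIABLO to 1.11 for CASP2. Its median was 0.45 over the 8 genes and 0.94 over all genes tested, and in the shscramble pair it was 0.15 in both cases.

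Levels between genes were compared per length, with the authors' FPKM. In shscramble the order from high to low was CYCS, CASP2, CASP6, APAF1, CASP8, CASP9, DIABLO and CASP10, and the 2 libraries of each gene were clear of those of the next. CYCS was at 128 ± 9.16 FPKM and CASP2 at 14.0 ± 0.489 FPKM (SD, n = 2 each), while CASP6, APAF1, CASP8 and CASP9 fell between 3.22 and 6.54 FPKM. DIABLO was at 0.182 ± 0.0151 FPKM and CASP10 at 0.0159 ± 0.00581 FPKM. As the DIABLO counts may leave out part of its transcript, its place in this order is uncertain. In shGOLM1, APAF1 followed CASP2 at 9.05 ± 1.34 FPKM, and CASP6 stood below CASP8 at 3.04 ± 1.35 FPKM (SD, n = 2 each). There the ranges of CASP2 and APAF1, of CASP8 and CASP6, and of CASP6 and CASP9 overlapped, so the order within these pairs is not resolved.

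**Figure D3:**
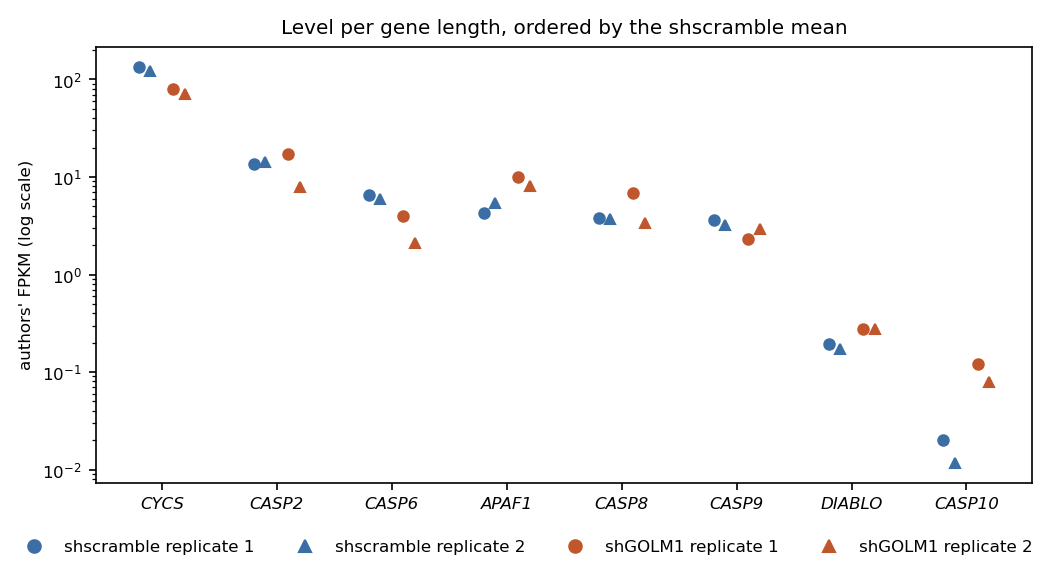
The authors' FPKM of each gene on a log scale, with genes ordered by their shscramble mean; colours and symbols mark the libraries. CYCS (71.2 to 135 FPKM) lies far above the other genes, and CASP10 stays at or under 0.122 FPKM in every library.

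The wider pathway was read from 8 lists. Of their 63 tested genes edgeR over 4 libraries called 0 (6 at an unadjusted p under 0.05, beside 11.8% of all genes) and limma-voom 0, and DESeq2 called BIRC3 and GSDME (adjusted p = 0.0317 and 0.0147; 3.69% of all genes). Among the inflammatory caspases, which process cytokine precursors, CASP1 was at 23.0 and 20.7 CPM in the controls against 29.2 and 28.6 CPM in shGOLM1, and CASP4 at 77.9 and 73.7 against 62.0 and 62.7 CPM. Their log2 fold changes were 0.41 (SE 0.30) and -0.28 (SE 0.27). Neither passed over the 4 libraries, but in edgeR each shGOLM1 library alone called CASP1 higher and CASP4 lower.

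At the death receptor complex, 5 of 8 genes lay higher and 2 lower in both shGOLM1 libraries (25.2% and 26.5% of all genes), with a median log2 fold change of 0.50 beside 0.05 over all genes tested, and 0 of the 8 passed edgeR. The death receptors FAS and TNFRSF10B were among the higher ones. FAS was at 11.4 and 13.7 CPM in shscramble and 24.1 and 52.1 CPM in shGOLM1, and TNFRSF10B at 107 and 113 against 189 and 595 CPM. Their adaptor FADD, which recruits CASP8 and CASP10, went the other way, at 21.3 and 16.2 CPM in shscramble, 11.5 CPM in shGOLM1 replicate 1 and 0.967 CPM in replicate 2. In edgeR FADD was called lower in each library alone, with log2 fold changes of -0.72 and -4.32. For CASP2's platform, PIDD1 was at 30.4 and 32.0 against 52.7 and 98.8 CPM, while the second adaptor CRADD was at 33.1 and 29.9 against 16.6 and 25.1 CPM. In edgeR each shGOLM1 library alone called PIDD1 higher and CRADD lower.

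Of 7 inhibitors of apoptosis 5 were tested, with 2 higher and 1 lower in both shGOLM1 libraries (all genes 25.2% and 26.5%). XIAP, a direct inhibitor of CASP9, was at 83.0 and 90.4 CPM in shscramble, 128 CPM in shGOLM1 replicate 1 and 59.9 CPM in replicate 2. It was called higher in the first and lower in the second by edgeR, the same split as CASP2. BIRC3, an NF-kB-induced ubiquitin ligase, was at 9.56 and 9.44 against 10.8 and 122 CPM, so its DESeq2 call rests on replicate 2, and replicate 1 alone had a log2 fold change of 0.16. BIRC6, a giant inhibitor that also ubiquitinates, was at 51.8 and 74.8 against 151 and 81.1 CPM.

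Among genes of mitochondrial release, 8 of 9 were tested, with 1 higher and 4 lower in both shGOLM1 libraries (all genes 25.2% and 26.5%). HTRA2, a protease released with cytochrome c, was at 31.9 and 27.5 CPM in shscramble and 21.7 and 17.3 CPM in shGOLM1. AIFM1, a flavoprotein of the mitochondrial intermembrane space, was at 234 and 224 against 143 and 92.2 CPM, and BID, the link from CASP8 to mitochondria, at 0.705 and 0.722 against 1.79 and 1.67 CPM. Of 9 genes whose products bind or modify the apoptosome, 7 were lower and 1 higher in both (all genes 26.5% and 25.2%), with a median log2 fold change of -0.61 (all genes 0.05), and 0 of the 9 passed edgeR. HSP90AA1, a chaperone, was at 6275 and 6236 CPM in shscramble and 3892 and 2695 CPM in shGOLM1, and ANP32A, which promotes apoptosome activity, at 458 and 420 against 283 and 333 CPM. Among 10 caspase substrates 3 were higher and 3 lower, again beside 25.2% and 26.5% of all genes. LMNA, the lamin cut by CASP6, was at 127 and 121 against 349 and 411 CPM. GSDME, a pore-forming protein cut by caspases, was at 4.996 and 4.691 against 12.8 and 41.2 CPM. In edgeR each shGOLM1 library alone called LMNA and GSDME higher.

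CYCS can be set beside 18 genes of its maturation and of the respiratory complexes that pass it electrons or take them. Of these, 3 had both shGOLM1 libraries below both controls (26.5% of all genes) and 0 had both above (25.2%). In edgeR 17 of the 18 were called lower in shGOLM1 replicate 1 alone (24.1% of all genes), with a median log2 fold change of -0.59 (all genes -0.03). In replicate 2 alone 14 were called higher and 2 lower (33.3% and 34.1% of all genes), with a median of 0.68 (all genes -0.10), and 13 of the 18 were called in opposite directions (11.3% of all genes). CYCS was lower in both, as were HCCS, the enzyme that attaches heme to cytochrome c (37.2 and 34.3 CPM in shscramble against 26.7 and 26.8 CPM in shGOLM1), and UQCRFS1, the iron-sulfur subunit of complex III (184 and 162 against 92.3 and 128 CPM). Mitochondrially encoded genes, given above by library, were low in replicate 2, and their part in these values was not tested.

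**Figure D4:**
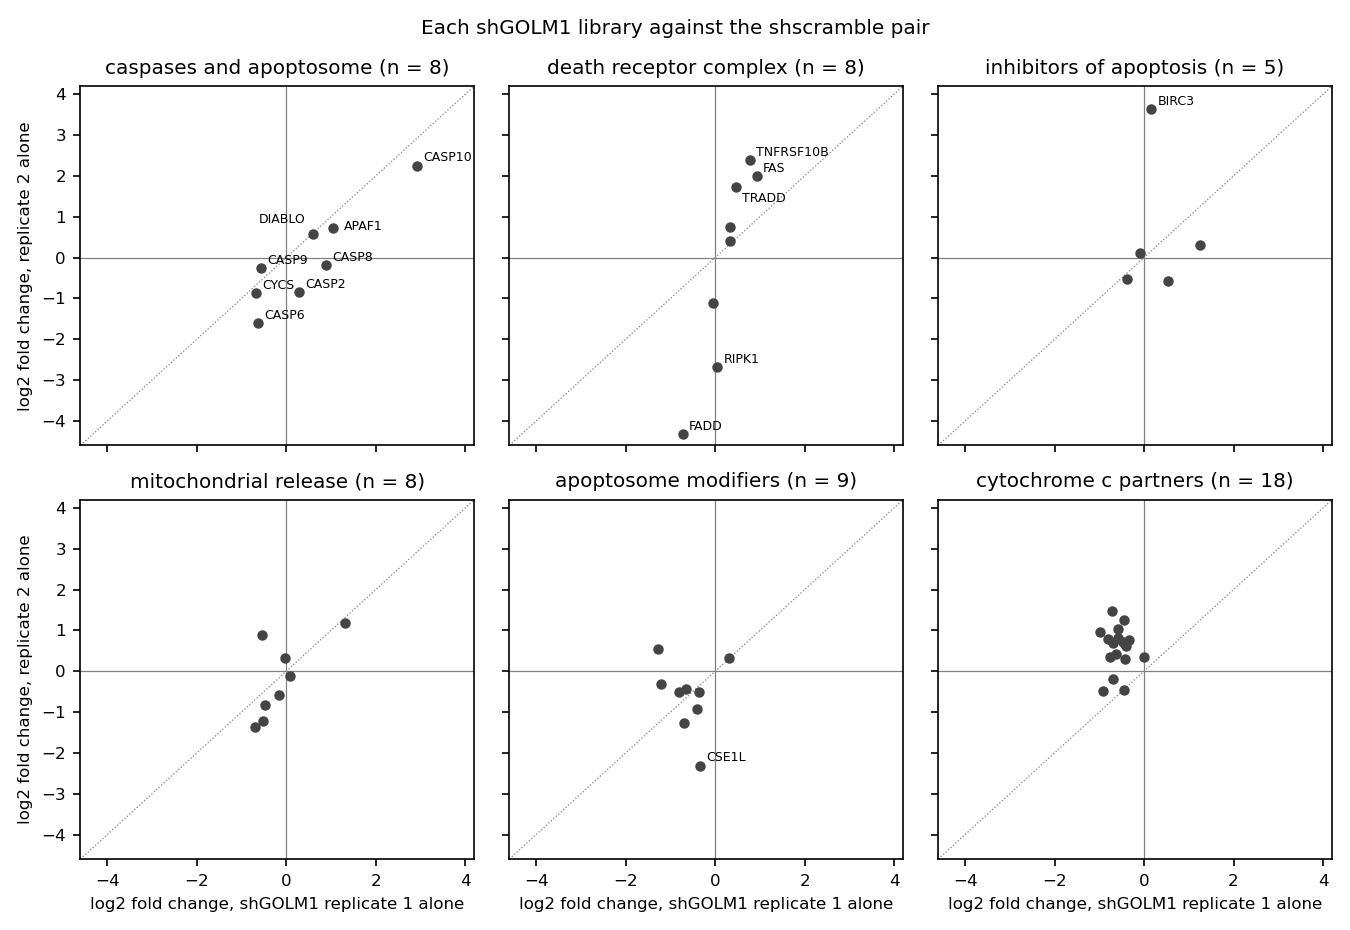
Log2 fold change of shGOLM1 replicate 1 alone (horizontal axis) against replicate 2 alone (vertical axis), 1 point per gene, for 6 gene groups; both axes share the shscramble pair and the dotted line marks equal values. Most cytochrome c partners sit left of 0 and above 0, and FADD and RIPK1 lie far below the dotted line.

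Patterns were compared by the Euclidean distance between log2 CPM profiles over the 4 libraries, each centred on its shscramble mean, among 9516 genes of at least 5 CPM. For CASP10 the nearest were SV2A (distance 0.408) and ZDBF2 (0.482), and 3 genes lay within 0.5. CASP10 itself had 3 to 33 counts per library, so the prior count of 2 in log2 CPM weighs on its distances. For CASP6 they were HSD3B7 (0.0316) and TEFM (0.0379), with 586 genes within 0.5, and for APAF1 RNF103 (0.0387) and MROH1 (0.0803), with 192. With 4 libraries many genes share such a profile, and the distance is a description.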

How the data were processed

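RNA-seq of 4 SUP-M2 libraries was analysed from 1 deposited table. The deposited counts are whole numbers per gene and library, per the file headers. The authors' FPKM values are scaled by gene length and a library total. The same table holds, per the file headers, the authors' mean signal per group, log2 fold change, p-value and adjusted p-value, whose tool is not named. Only the adjusted p-values were counted, beside the tests run here. The deposited log2 fold changes of the gene set equal those of the DESeq2 fit run here, for example -0.763 for CYCS. The deposited table is thus no separate check on that fit. Per the labels' protocols, a SMARTER mRNA-seq kit was used on total RNA. The sources used here give no aligner, counter or strand setting. Mouse builds (GRCm38, mm10) stand in the submitters' processing notes, but all 58735 identifiers and coordinates equal GENCODE 29 on GRCh38. Symbols shown as dates (27) were restored from GENCODE by identifier.

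Groups follow the sample titles. The test was edgeR 4.0.16 (R 4.3.3): quasi-likelihood, TMM, filterByExpr, no covariate, two-sided, Benjamini-Hochberg adjustment over 14166 genes, threshold 0.05. Its standard errors were derived as the absolute log2 fold change over the square root of the F statistic. Intervals at 95% used these and the fit's degrees of freedom. The shscramble libraries held 31972153 and 31608073 counts, the shGOLM1 libraries 30889185 and 27544171, with TMM factors from 0.828 to 1.12. A 0 allows up to 3 counts, for counting error only. Replicates were no copies of each other (chi-square per gene 13.8 in shscramble and 508 in shGOLM1). Alternatives were other scalings and filters, a replicate block, each library left out, DESeq2 1.42.0 and limma-voom (limma 3.58.1). The procedure was also run on simulated counts with a single spread for all genes and both groups. The groups differ in spread here, so that run is no check on the calls. The genes, the lists and the tests were chosen with earlier results of these data known. The rule named the 8 genes, GOLM1, BCL2L1 and a set of fixed pathway genes, some of which are not reported here, and from each list the 2 genes with the smallest p and at least 1 CPM. Pattern neighbours are given for the 3 genes with the largest fold change. KRT8, CSF1R, PRF1, TNFRSF8, GZMB and RIPK1, and the motifs, were chosen after their values were seen. Figures were drawn with matplotlib 3.10.9.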

Additional observations from a re-analysis of the deposited data

How the results depend on the processing

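Each of the 8 genes kept its direction and stayed above the threshold of 0.05 in edgeR with RLE size factors, with unscaled library totals, with no filter and with the replicate block, in DESeq2, in limma-voom, and without either shscramble library. A filter of 5 CPM left out CASP10 and DIABLO and changed no direction in the other 6. Over all genes, where edgeR called 0, the calls were 192 with no filter, 203 with the replicate block and 554 in DESeq2. Same-numbered libraries did not deviate together (correlation -0.0977), so the block is not read as a pairing, and it called 0 of the 8 genes. Leaving out 1 library gave 20 to 10290 calls over all genes and 0 to 7 calls among the 8. The high values come from the fits with 1 shGOLM1 library, whose spread is taken from the shscramble pair: 4 without shGOLM1 replicate 1 and 7 without replicate 2. Leaving out 1 library moved the log2 fold change of CASP2 between -0.85 and 0.29, of CASP8 between -0.18 and 0.88, and of XIAP between -0.58 and 0.54. The median over the 8 genes was 0.17, between -0.21 and 0.44 with 1 library left out, and -0.14 with the 5 CPM filter. The cause was not tested. Counts were low for CASP10 and DIABLO, the only genes of the set under 100 counts in every library. For DIABLO the part of depth and that of reads on shared bases were not tested. The call of CASP10 without shGOLM1 replicate 2 is no support, as it was tested only through its shGOLM1 counts.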

Other observations

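BCL2L1, which encodes BCL-XL, the protein named in the series title, was at 27.0 and 22.1 CPM in shscramble and 18.0 and 15.5 CPM in shGOLM1. Both shGOLM1 libraries were lower, with a log2 fold change of -0.55 (SE 0.33, adjusted p = 0.533 in edgeR), the same direction as CYCS and CASP6 and opposite to APAF1.

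After the values were seen, the nearest pattern to CYCS among the 9516 genes compared was found to be that of NRF1, the gene of nuclear respiratory factor 1, at 33.7 and 31.8 CPM in shscramble and 21.0 and 18.5 CPM in shGOLM1 (distance 0.0467). MTPAP was almost as near (distance 0.0531). Over these 4 libraries 962 genes lie within a distance of 0.5 of CYCS. The place of a single gene in that order is thus a description, and a link between NRF1 and the CYCS level was not tested.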
